A study of Arabidopsis thaliana with 24 samples.

Results

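The genes described here are 10 members of the flavonoid and anthocyanin pathway of Arabidopsis thaliana: the early enzymes CHS, CHI, F3H, F3'H and FLS1, the late enzymes DFR, LDOX and A3G2XYLT, and the regulators PAP1 and MYB12. They were chosen by locus, and 9 of the 10 had a probe set, 1 each, among 22746 probe sets on the array. The locus of LDOX (AT4G22880), which forms anthocyanidins, is given for no probe set in the authors' table, so LDOX was not analysed here.

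Flavonoids are made from an activated phenylpropanoid acid and malonyl units. CHS joins these, CHI closes the ring, F3H and F3'H add hydroxyl groups, FLS1 turns the product into flavonols, and DFR and LDOX lead to anthocyanins, which sugar transferases such as A3G2XYLT decorate. In leaves, flavonols and anthocyanins act as sunscreens and stress pigments. The MYB factor MYB12 switches on the early enzymes, and PAP1, in a complex with bHLH proteins and TTG1, switches on the late ones.

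Leaves of 6-week-old soil-grown plants, kept in short days, were infiltrated with 1 µM flg22, a peptide of bacterial flagellin that leaves perceive through a surface receptor, or with water, and taken after 4 h. RNA of whole leaves was hybridised to Affymetrix ATH1 arrays. The 4 genotypes were 35S::ERF104, which expresses the transcription factor ERF104 from a viral promoter active in most cells, the knockouts erf104-ko (erf104 below) and mpk6-ko (mpk6 below), and the wild type Col-0. MPK6 is a MAP kinase that flg22 activates, and ERF104 is one of its substrates. The groups were thus 35S::ERF104, erf104, mpk6 and Col-0, each under flg22 and under water, with 3 arrays a group and 24 in all. The labels give no allele and no number of independent lines, and do not say whether replicates were separate plants, so p-values measure the spread between these samples, which may be technical. In whole leaves, fewer cells of a type and less RNA per cell cannot be told apart.

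Values are the authors' scaled linear intensities, called signals here. Replicate 2 of erf104 flg22 correlated with the other arrays at 0.223 to 0.25 and stood apart. It was left out, which leaves 23 arrays and 2 for erf104 flg22. Arrays of a group correlated at 0.614 to 0.734 in Col-0 water, at 0.73 to 0.836 in Col-0 flg22 and at 0.845 to 0.93 elsewhere. The number of probe sets called present on every array was 5409 in Col-0 flg22, 2386 in Col-0 water and 8054 to 12231 in the other groups. A small signal was thus detected least often in Col-0, and the part of this in differences from Col-0 was not tested. ERF104 averaged 27010 ± 3714 in 35S::ERF104 water, 33.3 ± 16.7 in erf104 water and 189 ± 115 in Col-0 water (SD, n = 3 each). MPK6 averaged 348 ± 105 in mpk6 water and 1138 ± 402 in Col-0 water (SD, n = 3 each), with no overlap and a limma adjusted p of 0.0579. FRK1, a kinase gene induced by flg22, rose in each genotype, by 3.20 in 35S::ERF104, 3.46 in erf104, 5.18 in mpk6 and 5.04 in Col-0 on the log2 scale (limma adjusted p 6.15e-05, 0.000414, 0.00354 and 7.15e-05). The leaf markers RBCS1A, CA1, RCA and PSBO1 were called present on all arrays of every group. All 4 floral markers were called absent in 6 of the 8 groups, and all 4 seed markers in all 8. Of 3 markers each, 1 or 2 of roots, 2 or 3 of trichomes, 0 to 2 of vascular tissue and 0 of guard cells were called absent on all arrays of a group.

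Detection differed between the members and did not follow their roles throughout. CHI and F3H were called present on at least some arrays of every group, and CHS and FLS1 on every array of erf104 under both treatments, though on none of Col-0 water. F3'H was called absent on all arrays of 35S::ERF104 water and erf104 flg22 and present on some in the other 6 groups. DFR, which makes the precursors of anthocyanidins, was called present on no array, and marginal on some in 35S::ERF104 flg22. A3G2XYLT, which adds xylose to anthocyanins, was called absent on all arrays of every group other than those of 35S::ERF104. MYB12 was called present on some arrays of 35S::ERF104 water, marginal on some of erf104 water and absent elsewhere. The late branch and MYB12 were thus mostly called absent.

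**Figure D1:**
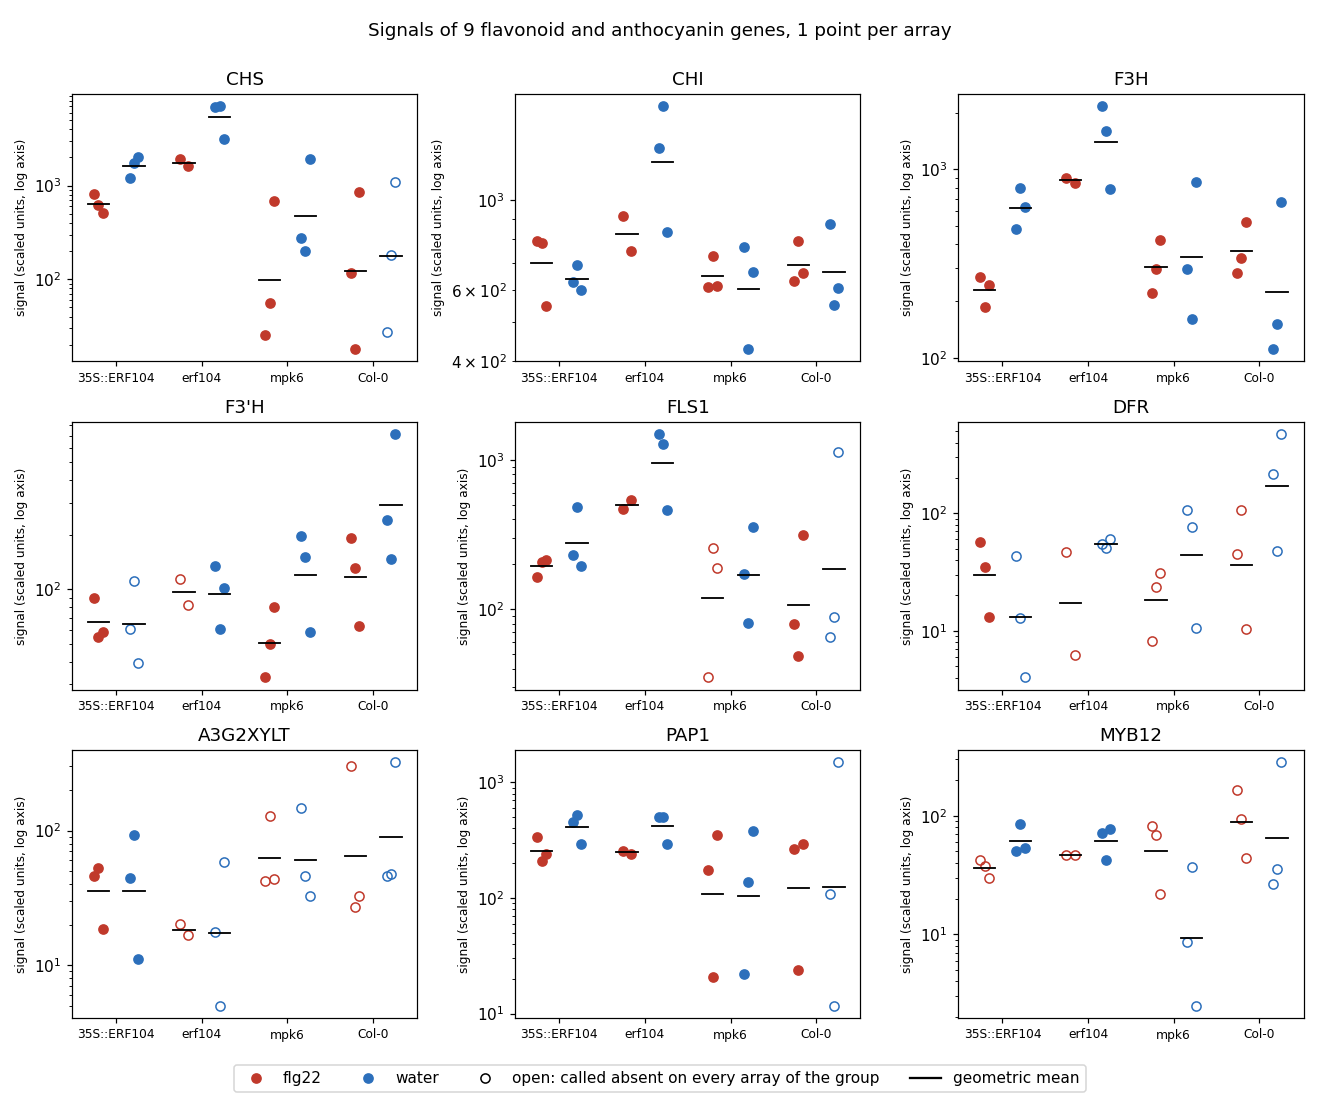
Signal of each measured member (vertical log axis, scaled units) on each array, by genotype, with flg22 in red left of water in blue. Open points mark groups in which the probe set was called absent on every array, and bars are geometric means; CHS in erf104 water has 3 points between 3099 and 7048.

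CHS (AT5G13930), chalcone synthase, the entry enzyme, spanned the widest range among groups. Its signals in erf104 were 1900 and 1596 under flg22, against 6956, 7048 and 3099 under water. In 35S::ERF104 they were 811, 613 and 510 under flg22, against 1213, 1728 and 2034 under water. The flg22 arrays of both lines lay below all their water arrays. So did those of 22.2% of all probe sets in erf104 and 19.7% in 35S::ERF104, and of 3 of the 9 members in each. In mpk6 CHS had 25.2, 55.5 and 681 under flg22, against 273, 203 and 1915 under water. In Col-0 it had 118, 17.9 and 846 under flg22, against 27.6, 180 and 1097 under water. In these 2 genotypes the treatments overlapped, and replicate 3 was high under both. By replicate number, each mpk6 flg22 array lay below its water array, while in Col-0 replicate 1 lay above. Replicate numbers were not taken as pairs. By mean signal the order was erf104 water (5701), erf104 flg22 (1748), 35S::ERF104 water (1659), mpk6 water (797), 35S::ERF104 flg22 (645), Col-0 water (435), Col-0 flg22 (327) and mpk6 flg22 (254). Below erf104 water, each group in that order overlapped the next.

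F3H (AT3G51240), flavanone 3-hydroxylase, had 268, 185 and 242 in 35S::ERF104 under flg22, against 483, 794 and 630 under water. In erf104 it had 904 and 845 under flg22, against 2168, 1597 and 785 under water. The treatments did not overlap in 35S::ERF104, as for 19.7% of all probe sets in that direction. In erf104 the third water array lay below both flg22 arrays. F3H had 221, 296 and 422 in mpk6 under flg22, against 296, 160 and 853 under water. In Col-0 it had 281, 339 and 527 under flg22, against 111, 150 and 667 under water. The treatments overlapped in both. The order by mean was erf104 water (1517), erf104 flg22 (875), 35S::ERF104 water (636), mpk6 water (436), Col-0 flg22 (382), mpk6 flg22 (313), Col-0 water (309) and 35S::ERF104 flg22 (232). In that order only erf104 flg22 and 35S::ERF104 water were neighbours without overlap.

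FLS1 (AT5G08640), flavonol synthase, had 468 and 537 in erf104 under flg22, against 1482, 1271 and 462 under water. In 35S::ERF104 it had 165, 207 and 213 under flg22, against 229, 483 and 195 under water. The treatments overlapped in both lines, each time through the third water array. FLS1 had 34.9, 256 and 187 in mpk6 under flg22, against 171, 80.5 and 354 under water. In Col-0 it had 79.8, 48.7 and 316 under flg22, against 65.0, 88.7 and 1132 under water. Of the Col-0 arrays, only replicate 3 of water lay within the range of erf104 water.

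CHI (AT3G55120), chalcone isomerase, varied least. Its signals in erf104 were 912 and 747 under flg22, against 1345, 1708 and 835 under water. In the other 6 groups all arrays lay between 428 and 875. F3'H (AT5G07990), which adds the second hydroxyl group of the B ring, reached 239, 146 and 714 in Col-0 water. It lay between 32.8 and 197 on all other arrays used.

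PAP1 (AT1G56650) was called present on every array of erf104 and 35S::ERF104. In erf104 it had 257 and 239 under flg22, against 500, 504 and 294 under water. In 35S::ERF104 it had 334, 210 and 242 under flg22, against 458, 522 and 291 under water. The treatments did not overlap in erf104, where 22.2% of all probe sets were lower without overlap, and overlapped in 35S::ERF104. Its signals in mpk6 and Col-0 ran from 11.7 to 1488, the highest being replicate 3 of Col-0 water. On that array every measured member other than CHI had its highest signal among the Col-0 water arrays. That array's median signal over all probe sets was 302, against 181 and 259 on the other Col-0 water arrays.

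The question of the flg22 comparison was which members changed within 4 h of the peptide in each genotype. CHS fell in 35S::ERF104 and in erf104, and F3H fell in 35S::ERF104. No measured member rose in any genotype. The log2 change of CHS was -1.36 ± 0.214 in 35S::ERF104 and -1.62 ± 0.334 in erf104 (SE), which is 2.56-fold and 3.06-fold lower under flg22 (limma adjusted p 0.00143 and 0.0129). F3H fell by 1.44 ± 0.221 on the log2 scale in 35S::ERF104, or 2.72-fold (limma adjusted p 0.00122).

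In 35S::ERF104, 2 of 9 members passed, both lower, while 18.4% of all probe sets were called, 7.98% as higher and 10.4% as lower. In erf104 1 of 9 passed, where 9.71% were called, 4.36% as higher and 5.35% as lower. In mpk6 0 of 9 passed, where 3.72% were called, 2.17% as higher and 1.55% as lower. In Col-0 0 of 9 passed, where 1.86% were called, 1.58% as higher and 0.277% as lower. No member had an unadjusted p under 0.05 in mpk6 or Col-0 in these fits, where 3422 and 2705 of all probe sets did. With replicate number as a block, 1 of 9 passed in mpk6, as lower. The members' median log2 change was -0.53 in 35S::ERF104, -0.67 in erf104, -0.18 in mpk6 and -0.46 in Col-0, against -0.11, -0.08, 0.01 and -0.39 over all probe sets. With arrays centred on their medians, 2256 probe sets were higher and 1793 lower in 35S::ERF104, against 1814 and 2363 as deposited. In erf104 the centred counts were 1181 higher and 823 lower, against 992 and 1217.

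**Figure D2:**
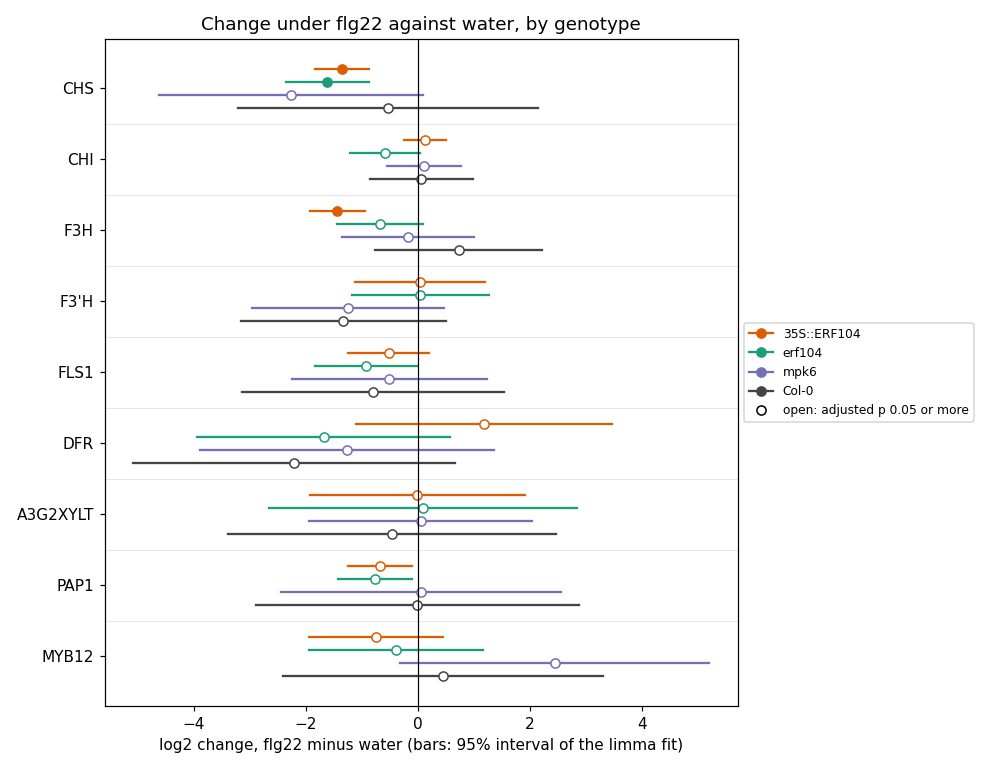
The log2 change under flg22 against water (horizontal axis) for each measured member, by genotype, with the 95% interval of the limma fit. Filled points have an adjusted p under 0.05; they are CHS in 35S::ERF104 (-1.36) and erf104 (-1.62) and F3H in 35S::ERF104 (-1.44).

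Some members that did not pass had unadjusted p under 0.05. The FLS1 estimate in erf104 was -0.93 ± 0.41 (limma adjusted p 0.211). The PAP1 estimates were -0.68 ± 0.257 in 35S::ERF104 and -0.76 ± 0.297 in erf104 (limma adjusted p 0.104 and 0.154). The F3H estimate in erf104 was -0.67 ± 0.348, with an unadjusted p of 0.0795 (limma adjusted p 0.295). In mpk6 the CHS estimate was -2.27 with a 95% interval of -4.62 to 0.09 (limma adjusted p 0.358). That interval holds no change as well as falls larger than those of the lines that passed. In Col-0 the CHS interval ran from -3.20 to 2.13.

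The falls in 35S::ERF104 passed with any 1 of its 6 arrays left out, but not with all groups in 1 fit, where the adjusted p was 0.772 for CHS and 0.189 for F3H; CHS also missed without a trend in the variance prior (0.0523). In erf104 the CHS call ended without flg22 replicate 1 (adjusted p 0.0725), flg22 replicate 3 (0.152) or water replicate 2 (0.0674), and with the array that stood apart (0.635), without a trend (0.211) or with 1 fit (0.735). The summed signal of 4 leaf markers was lower under flg22 in the same lines, at 102891 to 114414 against 147376 to 174993 under water in 35S::ERF104 and at 94101 to 102749 against 106430 to 244913 in erf104. It was also lower in Col-0, at 98610 to 131439 under flg22 against 139749 to 299878 under water, where no member passed, and overlapped in mpk6, at 92421 to 129393 against 114087 to 182694. The summed signal of 3 guard-cell markers was also lower in 35S::ERF104, at 563 to 609 under flg22 against 662 to 752 under water. The part of either sum in the results was not tested.

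The differences between the flg22 responses of the lines and that of Col-0 were tested as interactions over 23 arrays. No member passed in any, with 0% of probe sets called in each, although 1531 probe sets for 35S::ERF104, 1393 for erf104 and 1615 for mpk6 had an unadjusted p under 0.05. The F3H response of 35S::ERF104 minus that of Col-0 was -2.17, with a 95% interval of -3.78 to -0.55 (limma adjusted p 0.695). For CHS the difference was -0.82 (-4.27 to 2.62) for 35S::ERF104, -1.08 (-4.74 to 2.58) for erf104 and -1.73 (-5.18 to 1.72) for mpk6. A response particular to a genotype is thus not shown for any member.

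The comparison of genotypes under water asked how the members stood without flg22, 4 h after infiltration with water. Relative to Col-0, CHS and F3H were higher in erf104. CHS was higher there by a detection bound of 13.0-fold, used because it was called absent on all Col-0 water arrays (limma adjusted p 0.0221). Such bounds, written as "at least" below, allow for detection only and are not confidence limits. The interval of the limma fit for CHS ran from 2.49 to 7.36 on the log2 scale, which includes differences smaller than that bound. F3H was higher by 2.64 ± 0.554 on the log2 scale, or 6.25-fold (limma adjusted p 0.0128). All erf104 arrays lay above all Col-0 arrays for both genes, as for 7.84% of all probe sets, and 18.9% were lower without overlap. Over all probe sets the median difference was -0.51, so both stood further above that median than above 0. For erf104, 2 of 9 members were called, both higher, while 6.3% of probe sets were called, 2.75% as higher and 3.55% as lower. With centred arrays 2179 probe sets were higher and 400 lower, and with quantile normalization 550 and 235, against 626 and 808 as deposited.

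CHI was higher by 0.90 ± 0.287 in erf104 (limma adjusted p 0.0574). FLS1 was at least 2.48-fold higher by the detection bound (limma adjusted p 0.0904), with an interval of 0.57 to 4.13 on the log2 scale. Neither passed, and both overlapped Col-0. F3'H differed the other way, by -1.64 ± 0.681 with no overlap (limma adjusted p 0.124). PAP1 averaged 433 ± 120 in erf104 water and 536 ± 826 in Col-0 water (SD, n = 3 each). It was called absent on all Col-0 water arrays although 1 of them read 1488.

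In 35S::ERF104 water 0 of 9 members passed against Col-0, where 5.86% of probe sets were called, 2.34% as higher and 3.52% as lower. CHS was at least 3.96-fold higher by the detection bound, without overlap (limma adjusted p 0.0869), with an interval of 0.77 to 5.64 on the log2 scale. F3H differed by 1.48 ± 0.554 (limma adjusted p 0.0903). F3'H, called absent in 35S::ERF104 water, was 4.54-fold lower by the fit, with signals above the detection floor of those arrays, the lowest signal of a probe set called present throughout the group (limma adjusted p 0.0535), and DFR was called absent in both groups (0.0575). In mpk6 water 0 of 9 passed against Col-0, where 0.0044% of probe sets were called. Its estimates were 1.43 for CHS and 0.62 for F3H, with intervals that spanned 0. The MYB12 estimate of -2.80 rested on groups that were both called absent.

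**Figure D3:**
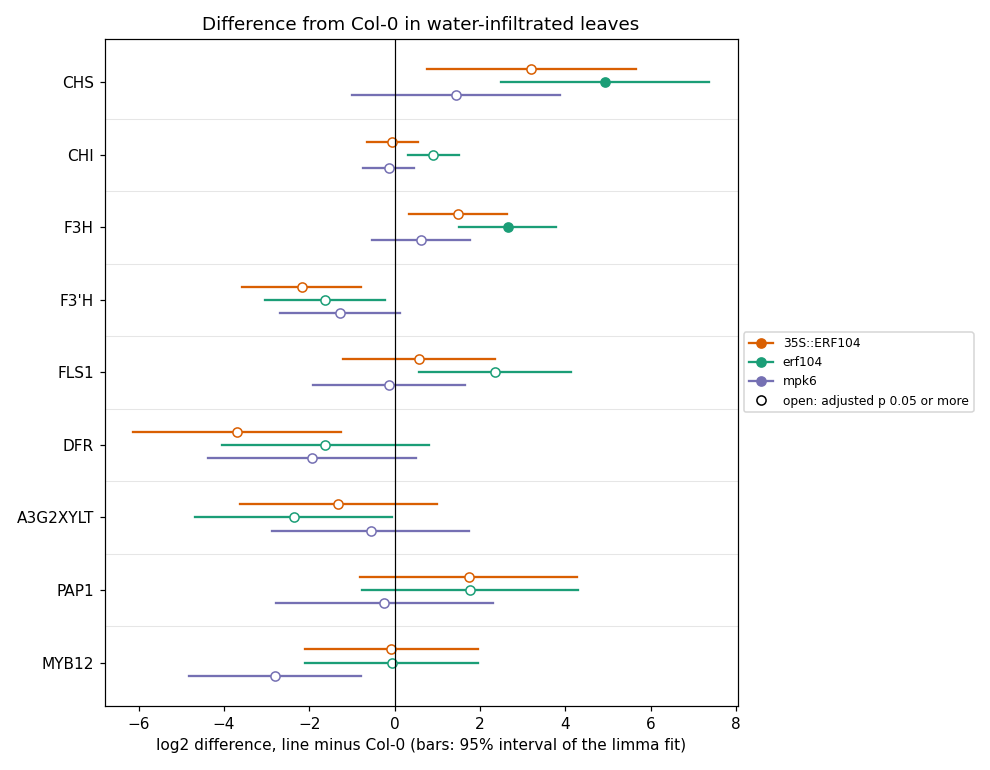
The log2 difference from Col-0 in water-infiltrated leaves (horizontal axis) for each measured member in 35S::ERF104, erf104 and mpk6, with the 95% interval of the limma fit. Filled points have an adjusted p under 0.05; they are CHS (4.92, a fitted value against a group called absent) and F3H (2.64) in erf104.

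The calls in erf104 water depended on single arrays. Without Col-0 water replicate 1, erf104 water replicate 1 or erf104 water replicate 2, the adjusted p was 0.102, 0.0716 and 0.0842 for CHS and 0.0602, 0.0584 and 0.0623 for F3H. With the array that stood apart in the fit it was 0.103 for CHS and 0.0808 for F3H, with no trend 0.0578 for CHS, and with the compared arrays alone 0.0625 for F3H.

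Under flg22 no member passed in any line against Col-0. The probe sets called were 0.44% for 35S::ERF104 (0.334% higher and 0.106% lower), 0.0132% for erf104 and 0% for mpk6, where 1121 had an unadjusted p under 0.05. CHS in erf104 lay above all Col-0 arrays, with a difference of 3.84 and a 95% interval of 1.12 to 6.57 (limma adjusted p 0.511). FLS1 and F3H in erf104 did not overlap Col-0 either, at 2.23 ± 0.965 and 1.24 ± 0.619 (limma adjusted p 0.540 and 0.576). Among all probe sets, 8.46% were higher without overlap in that comparison.

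Overexpression and loss of ERF104 were also compared with each other. No member passed, with 0.022% of probe sets called under water and 0.0879% under flg22 (0.0703% higher and 0.0176% lower). These fits took 1 spread estimate per probe set from all groups, Col-0 and mpk6 included. The SD of log2 CHS under water was 0.381 in 35S::ERF104, 0.679 in erf104, 1.76 in mpk6 and 2.66 in Col-0. With the compared arrays alone, 0.154% of probe sets were called under water and 1.65% under flg22, where 3 members passed. Among all probe sets, 7.27% were lower without overlap under water and 17.7% under flg22, and 3 and 4 of the 9 members were. All CHS arrays of 35S::ERF104 lay below those of erf104, with differences of -1.72 (95% interval -4.16 to 0.72) under water and -1.46 (-4.18 to 1.26) under flg22. CHI differed by -0.96 ± 0.287 under water without overlap (limma adjusted p 1.00), and F3H by -1.93 ± 0.619 under flg22 without overlap (limma adjusted p 0.760).

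The rest of the pathway was read in 36 genes with a probe set of their own, of 41 listed. Under flg22, 2 rose and 4 fell in 35S::ERF104, 1 rose and 2 fell in erf104, 1 rose in mpk6 and none passed in Col-0. In Col-0 4 had an unadjusted p under 0.05, as did 2705 of all 22746 probe sets. Among all probe sets 18.4%, 9.71%, 3.72% and 1.86% were called in these genotypes, so the counts were near or below the background. The median change of the 36 was -0.31 in 35S::ERF104, -0.50 in erf104, 0.01 in mpk6 and -0.19 in Col-0.

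MYB4 (AT4G38620), a MYB repressor of phenylpropanoid genes, rose in 3 genotypes. Its signals were 646, 712 and 1725 in 35S::ERF104 under flg22, against 281, 272 and 338 under water. In erf104 they were 639 and 2072 under flg22, against 352, 290 and 306 under water. In mpk6 they were 598, 726 and 821 under flg22, against 147, 165 and 157 under water. No flg22 array of these lines overlapped a water array. Of all probe sets, 14.1% in 35S::ERF104, 17.1% in erf104 and 9.46% in mpk6 were likewise higher without overlap. The log2 changes of MYB4 were 1.65 ± 0.315 in 35S::ERF104, 1.87 ± 0.397 in erf104 and 2.18 ± 0.331 in mpk6 (limma adjusted p 0.00426, 0.0146 and 0.00431). In Col-0 MYB4 had 221, 604 and 985 under flg22, against 13.3, 430 and 336 under water, which overlapped, and the change of 2.03 ± 0.978 did not pass (limma adjusted p 0.416). The erf104 call ended without flg22 replicate 3 (0.181) or water replicate 2 (0.0669). Without a trend the adjusted p was 0.0773 in 35S::ERF104, 0.219 in erf104 and 0.175 in mpk6, and with 1 fit over all groups 0.372, 0.366 and 0.125.

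UGT78D1 (AT1G30530), which adds rhamnose to flavonols, fell in the lines in which CHS fell. It had 352, 324 and 224 in 35S::ERF104 under flg22, against 474, 512 and 788 under water. In erf104 it had 203 and 205 under flg22, against 476, 786 and 446 under water. The treatments did not overlap in either line, as for 19.7% of all probe sets in 35S::ERF104 and 22.2% in erf104 in that direction. The log2 changes were -0.97 ± 0.238 in 35S::ERF104 and -1.43 ± 0.291 in erf104 (limma adjusted p 0.0163 and 0.0118). The call in 35S::ERF104 ended without flg22 replicate 3 (0.0568) or water replicate 3 (0.0659), and that in erf104 without flg22 replicate 1 (0.0782), flg22 replicate 3 (0.0999) or water replicate 2 (0.0664).

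CHIL (AT5G05270), a non-catalytic relative of CHI that aids chalcone formation, had 129 and 60.2 in erf104 under flg22, against 512, 467 and 253 under water. It was called absent under flg22, with signals above the detection floor of those arrays, and was 4.46-fold lower by the fit (limma adjusted p 0.0110), a call that ended without flg22 replicate 3 (0.117) or water replicate 2 (0.0721). In 35S::ERF104 it passed as lower while called absent under both treatments (limma adjusted p 0.00638), so no size is given. UGT78D2, a 3-O-glucosyltransferase of flavonols and anthocyanidins, fell by 0.77 ± 0.206 in 35S::ERF104 (limma adjusted p 0.0248). That call ended without any 1 of 5 of the 6 arrays, the exception being water replicate 1, with adjusted p up to 0.103, and with centred arrays (0.0683). The transporter gene DTX35 rose by 0.67 ± 0.130 in 35S::ERF104 (limma adjusted p 0.00437). With 1 fit over all groups none of these other pathway genes called under flg22 passed (limma adjusted p 0.0715 to 0.853). Without a trend only CHIL in 35S::ERF104 passed among them.

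**Figure D4:**
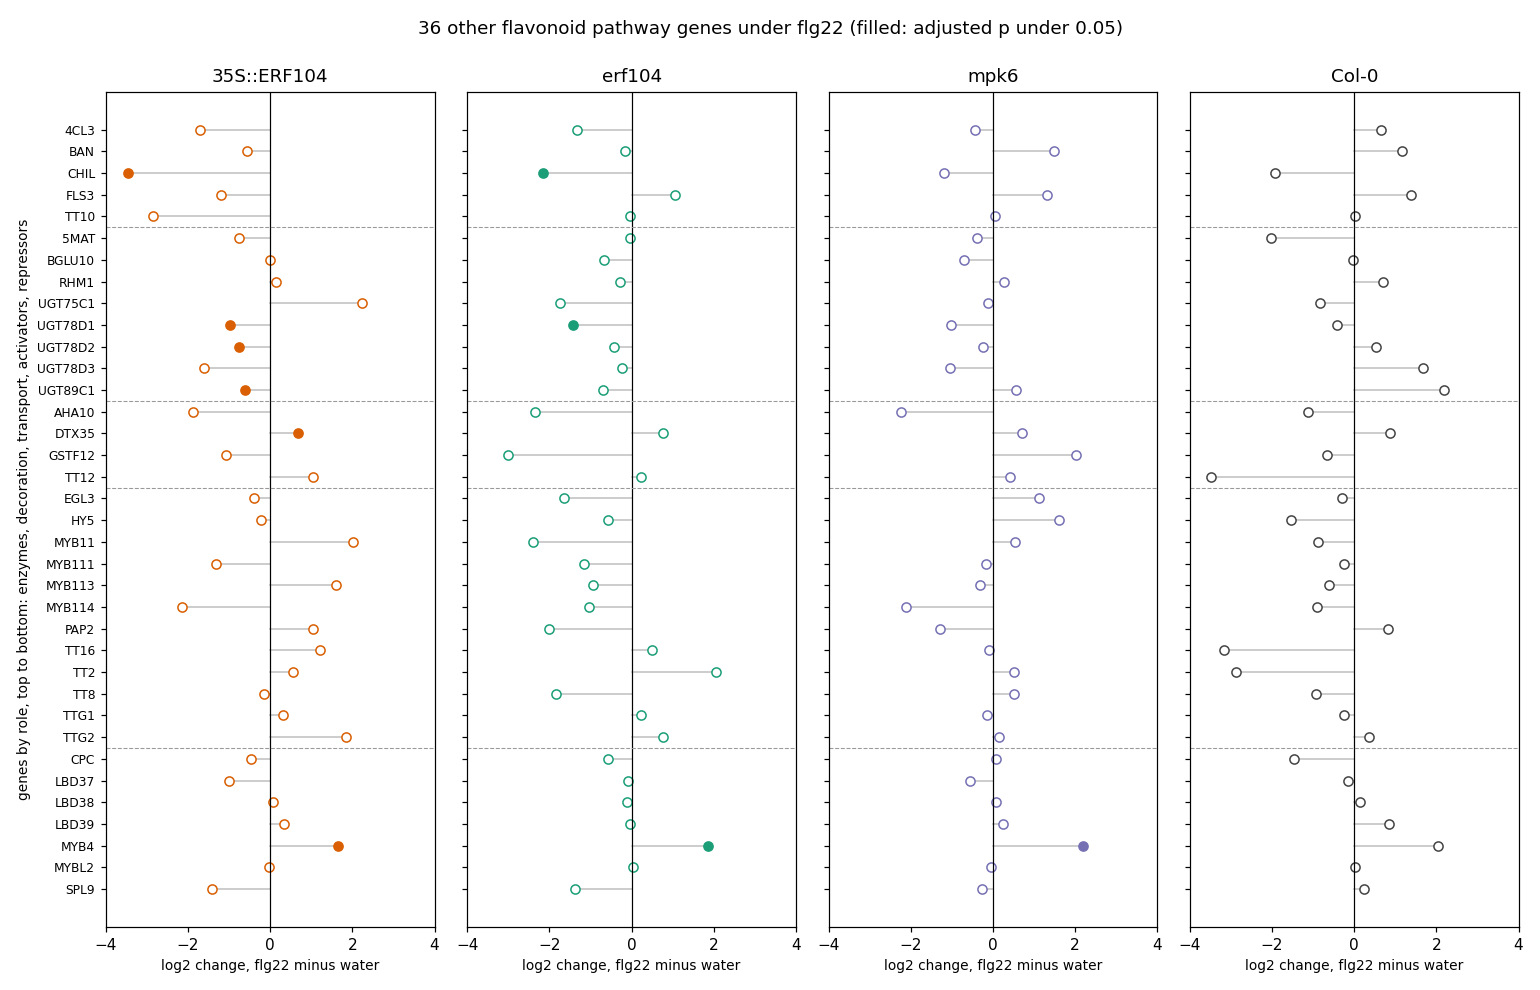
The log2 change under flg22 against water (horizontal axis) of 36 other pathway genes in 35S::ERF104, erf104, mpk6 and Col-0, ordered by role from enzymes at the top to repressors at the bottom. Filled points have an adjusted p under 0.05; MYB4 is filled in 3 genotypes and at 2.03 but open in Col-0.

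Under water, 3 of the 36 were higher in erf104 than in Col-0 and none was lower, where 6.3% of all probe sets were called. UGT89C1 (AT1G06000), a flavonol 7-O-rhamnosyltransferase, had 1133, 1254 and 579 in erf104, against 59.0, 114 and 176 in Col-0. The difference was at least 3.81-fold by the detection bound (limma adjusted p 0.00176). UGT78D2 was higher by 3.00 ± 0.817 (limma adjusted p 0.0337) although its arrays overlapped those of Col-0. RHM1, which makes the UDP-rhamnose that these transferases use, was higher by 1.12 ± 0.327 (limma adjusted p 0.0423). The UGT78D2 and RHM1 calls ended without Col-0 water replicate 1 (0.150 and 0.192), erf104 water replicate 1 (0.0669 and 0.124) or erf104 water replicate 2 (0.118 and 0.157), and that of UGT78D2 also without erf104 water replicate 3 (0.0771). Both also ended with quantile normalization (0.0507 and 0.140) and without a trend (0.0718 and 0.0836).

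In 35S::ERF104 water UGT89C1 had 543, 657 and 649. It was at least 2.50-fold higher than in Col-0 by the detection bound (limma adjusted p 0.00787). Of the activators, MYB113, a relative of PAP1, was at least 5.29-fold lower by the detection bound (limma adjusted p 0.0439). The bHLH gene EGL3 passed as lower while called absent in both groups (limma adjusted p 0.0473). The UGT89C1 call ended without 35S::ERF104 water replicate 3 (0.0534). The MYB113 and EGL3 calls ended with any 1 of 5 of the 6 arrays left out, Col-0 water replicate 2 being the exception, with adjusted p up to 0.158 and 0.141. Both also ended with quantile normalization (0.147 and 0.296) and with centred arrays (0.0587 and 0.0600). None of the 36 passed in mpk6 against Col-0 under water or in any line against Col-0 under flg22. Nor did any between 35S::ERF104 and erf104 or in the interactions. In these comparisons 2 to 10 of the 36 had an unadjusted p under 0.05, as did 715 to 3567 of all 22746 probe sets. The 10 were in 35S::ERF104 against Col-0 under flg22 (3441 of all), and the 2 in mpk6 against Col-0 under flg22 (1121 of all).

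Across the 23 arrays, log2 signals of FLS1, F3H and PAP1 varied with CHS. Pearson's r with CHS was 0.860 for FLS1, 0.797 for F3H, 0.659 for PAP1 and 0.392 for CHI (Spearman's rho 0.827, 0.835, 0.746 and 0.302). For the other members, the early enzyme F3'H among them, it ran from -0.381 to -0.0971. The r of CHI with CHS was 0.794 over the arrays of erf104 and 35S::ERF104 and -0.34 over those of Col-0 and mpk6, with group differences kept in. Within groups, after each group's mean was taken off, r was 0.794 for FLS1, 0.762 for F3H and 0.610 for PAP1, but -0.0947 for CHI and 0.0555 for F3'H. These are descriptions: the points share arrays, scaling and groups that differ in CHS.

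The 5 genes most like the mean of the 9 standardised members over 23 arrays were AT2G21580 (r 0.853), AT1G33811 (0.794), APRL4 (0.786), AT3G45210 (0.767) and AT3G04160 (0.747), the last of which was called absent in all 8 groups. CHS alone, a pattern picked after its values were seen, was followed most closely by AT3G52740 (r 0.944), CPN60A (0.934), VAR1 (0.930), ZKT (0.925) and AT1G76960 (0.923).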

How the data were processed

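Per the series text and labels, leaf RNA was hybridised to ATH1 arrays. The authors deposited 1 linear intensity per probe set and array, scaled so that the mean, with 2% trimmed from both tails, came to about 500; the sources used here do not name the probe summary software. The authors' table exported from Genespring GX 7.3.1, per the series text, gave detection calls (unit other) and mean intensity per group only, with each probe set's locus. In it EL1-k.o. was read as erf104 and EL1-Strep as 35S::ERF104. Its erf104 flg22 mean matched replicates 1 and 3 within 0.1% for 86.1% of probe sets, and all 3 arrays for 0.11%, so replicate 2 was left out.

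Tests ran on log2 intensity, without pseudocount or filter, since the 50% call filter of the series text needs calls per array, which were not used here. After 64 control probe sets of 22810 were removed, 22746 were tested with limma 3.58.1 (R 4.3.3; lmFit and eBayes, trended prior), adjusted by Benjamini-Hochberg over all of them, threshold 0.05. flg22 responses were fitted within each genotype; genotype differences and interactions were fitted over 23 arrays, 15 comparisons in all. The fits were tested on simulated data with normal noise of 1 SD per probe set, shared by all groups. Spreads that differ between groups, as they do here, were not simulated. Fold bounds use mean log2 signals and allow for detection only, so they are not confidence limits. A probe set called absent on all arrays of 1 group is given as a bound: the brighter group's mean against, per array of the dim group, the higher of its own signal and the lowest signal found for a probe set called present in that whole group. Where its own signals are all higher, the bound equals the fitted fold and is given as such. A group's calls stand in here for calls per array. The number of arrays limits the precision.

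Members were named by locus, and symbols come from RefSeq's table (TAIR10.1). All members are described; of 41 other pathway genes, 36 with a suffix-free probe set were counted, and up to 3 rises and 3 falls per comparison were named, largest first. Genes like the members were the 5 with the highest correlation with their mean. Marker lists of leaf, root, flower, seed, trichome, vascular and guard cells were read by group. The members and lists were chosen with earlier results of these data known. Alternatives changed the scaling, offset, variance prior, call filter, array weights, replicate block, arrays and test, including the methods' one-way ANOVA with a 3-fold threshold.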

Additional observations from a re-analysis of the deposited data

Results flagged for a closer look

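A3G2XYLT read 972 on erf104 flg22 replicate 2, the array outside every comparison, above the highest signal of the 23 arrays used (321). It is given because it appears in data not used elsewhere. On the same array CHS read 134, against 1900 and 1596 on the other erf104 flg22 arrays, while FLS1 read 588 and F3H 620. That array correlated with the others at 0.223 to 0.25, and what sets it apart was not tested.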

How the results depend on the processing

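No named gene changed direction in 342 refits of 21 gene results. With the ANOVA refits judged by p alone, without the 3-fold threshold, 218 kept the call and 124 lost it. On that basis CHS and F3H in 35S::ERF104 count as kept by the ANOVA before adjustment, although they changed by 2.56-fold and 2.72-fold. Of 266 recounts of members called, 229 stayed within 1.5 times of the count reported, where a 0 that stayed 0 counts as within. The 5 of 15 comparisons with no recount outside that limit all had a reported count of 0. Every comparison with a member called had recounts outside it. For the erf104 response (1 member called) the count was 0 without a trend, with all 24 arrays, with 1 fit over all groups and by the methods' ANOVA before and after adjustment, and 0 to 5 with 1 array left out. For the 35S::ERF104 response (2) it was 1 without a trend, 0 with 1 fit, 0 by the ANOVA before or after adjustment, and 2 to 3 with 1 array left out. For the mpk6 response (0) it was 0 to 1 with 1 array left out. For erf104 against Col-0 under water (2) it was 4 with centred arrays, 1 without a trend, 0 with all 24 arrays, 1 with the compared arrays alone, 0 by the ANOVA after adjustment, and 0 to 3 with 1 array left out. Between 35S::ERF104 and Col-0 under water (0) it was 2 with centred arrays, 2 with an offset of 50, and 0 to 2 with 1 array left out. With array weights it was 1, against 0, between erf104 and Col-0 and between 35S::ERF104 and Col-0 under flg22, and between 35S::ERF104 and erf104 under either treatment; erf104 against Col-0 under flg22 gave 0 to 1 with 1 array left out. 35S::ERF104 against erf104 gave 3 under flg22 with the compared arrays alone, and 1 under water and 1 under flg22 by the ANOVA before adjustment, as did the 35S::ERF104 interaction. The cause of these moves was not tested.

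Correlations of same-numbered arrays' deviations ran from -0.276 to 0.451. All 3 pairs were positive in the mpk6 response (0.0584 to 0.361) and in mpk6 against Col-0 under flg22 (0.0887 to 0.451), but in no comparison with 3 pairs were all above 0.1, so replicate numbers were not taken as pairs; with the replicate block the count was 1 for the mpk6 response and 2 between 35S::ERF104 and Col-0 under water, and within 1.5 times of the count reported elsewhere. Counts over all probe sets moved more: for the erf104 response 2209 were called as reported, 0 without a trend and 3469 with array weights, and for erf104 against Col-0 under water 1434, from 1 by the ANOVA after adjustment to 3725 without Col-0 water replicate 2. Low signals limit DFR, A3G2XYLT and MYB12, which were mostly called absent, and F3'H, called absent on all arrays of 2 groups.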
